A study of Homo sapiens with 6 samples.

Results

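The genes described here belong to 9 families of solute carriers, SLC1A, SLC2A, SLC3A, SLC5A, SLC6A, SLC7A, SLC16A, SLC36A and SLC38A, which move amino acids, sugars and monocarboxylates across membranes. Members were defined by gene symbol, as every probe whose annotated symbol starts with one of these family names, with SLC2A1 and SLC7A11 left out. The choice gave 134 probes of 92 genes, out of 19090 genes with a probe. Of these, 45 genes with 58 probes lay above the dimmest 40% of the named probes and are described below, out of 12350 such genes in all. The other 47 members were dimmer and have no test. Of the 45, 3 name no transporter protein: SLC2A4RG is a transcriptional regulator, SLC7A6OS is the gene on the strand opposite SLC7A6, and SLC6A10P is a pseudogene of the creatine transporter.

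All samples were made from H358, an established human cell line of bronchioalveolar carcinoma. One H358 line is labelled YAP(5SA), after a mutant of YAP, the coactivator that the Hippo pathway holds back, in which the serines it is inhibited through are replaced. The other carries GFP and is labelled the control. Each line received IL-1b, TNFa or vehicle for 60 min, and each of the 6 conditions was measured once, on 1 array. The labels write the cytokine dose in grams per ml, a unit that no cell culture could use, and the dose is treated as unknown. The series title names the purpose as finding genes that respond to YAP together with these cytokines. The sources used here name neither the promoter of the construct nor the number of clones behind each line. As each kind is 1 line, the difference between them holds whatever else set them apart, and in whole cultures fewer cells of a type cannot be told apart from less RNA per cell.

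Solute carriers set which nutrients a cell can take up and release. SLC1A proteins carry acidic or small neutral amino acids with sodium, SLC2A proteins (GLUTs) let sugars pass down their gradient, and SLC5A proteins couple sugars, inositol or vitamins to sodium. SLC6A and SLC38A proteins bring in neutral amino acids, taurine or transmitters with sodium, SLC16A proteins include the monocarboxylate transporters, and SLC36A proteins carry small or apolar amino acids, the best known of them together with protons and at the lysosome. The light chains of the SLC7A family exchange amino acids after pairing with a heavy chain, SLC3A2 for most of them. In tumour cells such exchangers supply the amino acids that the kinase complex mTORC1 senses.

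The levels below are log2(intensity + 16) on the scale of the deposited intensities, and a line difference is the YAP(5SA) level minus the GFP level on that scale. A gene passed the test when its adjusted p from limma was under 0.05 after Benjamini-Hochberg adjustment over all 12350 genes. No condition had a replicate array, so these p-values rest on the variation of the line difference across the 3 treatments, combined with a prior estimated over all genes. Median intensities ran between 335.2 and 398.1 over the 6 arrays. The probe for YAP1 read lower in the line labelled YAP(5SA) (-0.73 ± 0.21, limma SE, adjusted p = 0.0120). Where this probe lies in the transcript is unknown, and it checks nothing about the label. Of 12 epithelial and lung markers, 6 were above the dimness limit (KRT18, KRT7, CDH1, KRT8, SCGB1A1 and EPCAM), while SFTPB, NKX2-1, KRT19, SFTPC, NAPSA and SFTPA1 were below it. The summed intensity of the 12 was 255161 to 309591 on the YAP(5SA) arrays and 144370 to 190010 on the GFP arrays. Within that list CDH1 (1.65) and KRT18 (0.63) were higher in the YAP(5SA) line and EPCAM was lower (-1.03, adjusted p = 4.5e-04). The mean of EPCAM in the YAP(5SA) line (7.46) lay under the dimness limit, so it passed that limit only through the GFP line. Of the fibroblast markers 3 of 6 lay above the limit (VIM, COL1A1 and PDGFRB), with summed intensities of 128055 to 199401 on the YAP(5SA) arrays and 88052 to 131131 on the GFP arrays, and PDGFRB was higher in the YAP(5SA) line (1.10). PDGFRB had a mean of 7.28 in the GFP line, under the limit, and passed it only through the YAP(5SA) line. Of the leukocyte markers 3 of the 5 with a probe lay above it (CD14, CD68 and MS4A1) and PTPRC and CD3E below it. The summed intensity of these 5 was 2662 to 3398 on the YAP(5SA) arrays and 5134 to 5754 on the GFP arrays, and CD14 was lower in the YAP(5SA) line (-1.61). Of the endothelial markers 2 of 4 lay above it (VWF and CDH5), with sums of 885.2 to 991.3 on the YAP(5SA) arrays and 639.8 to 1010 on the GFP arrays. The part of these markers in the results below was not tested.

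Promoter windows were taken from RefSeq (GRCh38.p14), from 250 bases before to 50 after a transcript start. They held an entry for 36 of the 45 members, with 51 windows, and for 7 of the 10 members that differed between the lines. The windows shown belong to the member with the largest difference, SLC7A7, and to the 2 SLC36A members, which moved in opposite directions. Both strands were searched for the YAP partner motif TEAD (GGAATG), for AP-1 (TGANTCA), for the ATF4 composite element (TGATGNAA) and for the lysosomal CLEAR core (TCACGTGA), the last of which was added after the sequences had been read. Capitals mark a match.

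SLC7A7, chr14:22819742-22820041, minus strand, the most upstream of its 3 starts, no match: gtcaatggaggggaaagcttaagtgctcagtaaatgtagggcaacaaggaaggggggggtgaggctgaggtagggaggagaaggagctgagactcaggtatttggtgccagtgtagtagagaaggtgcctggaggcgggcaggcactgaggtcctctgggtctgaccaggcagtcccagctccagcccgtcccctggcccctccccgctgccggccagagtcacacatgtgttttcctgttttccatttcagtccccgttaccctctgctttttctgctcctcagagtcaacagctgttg

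SLC36A1, chr5:151447353-151447652, plus strand, CLEAR core in capitals: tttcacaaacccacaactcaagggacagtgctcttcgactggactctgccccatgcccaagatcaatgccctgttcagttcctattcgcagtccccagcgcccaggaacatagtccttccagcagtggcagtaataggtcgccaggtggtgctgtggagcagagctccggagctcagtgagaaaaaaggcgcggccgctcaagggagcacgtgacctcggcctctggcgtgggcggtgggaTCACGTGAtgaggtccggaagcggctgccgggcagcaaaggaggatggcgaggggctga

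SLC36A4, chr11:93197377-93197676, minus strand, AP-1 match in capitals: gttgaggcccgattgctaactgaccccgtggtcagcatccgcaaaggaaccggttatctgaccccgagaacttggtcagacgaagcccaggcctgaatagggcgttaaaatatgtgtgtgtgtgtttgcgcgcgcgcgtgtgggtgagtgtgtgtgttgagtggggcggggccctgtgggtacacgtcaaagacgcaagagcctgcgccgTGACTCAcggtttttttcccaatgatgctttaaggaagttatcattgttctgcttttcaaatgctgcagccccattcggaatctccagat

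The CLEAR match begins at base -9 from the SLC36A1 start shown and the AP-1 match at base -40 from the SLC36A4 start shown. Each of these genes has 2 starts in the table, and the windows of the other starts, chr5:151436796-151437095 for SLC36A1 and chr11:93197942-93198241 for SLC36A4, held none of the 4 motifs. None of the 3 windows of SLC7A7 held one. Of all 35116 windows, 14.0% held the TEAD motif, 7.71% AP-1, 3.62% ATF4 and 0.980% CLEAR. Of the 51 member windows, 5 held TEAD, 7 AP-1, 7 ATF4 and 1 CLEAR. Among the other members that differed between the lines, the window of SLC2A5 held an ATF4 match and that of SLC2A12 an AP-1 match, while those of SLC1A1 and SLC2A6 held none of the 4. A match is a string of letters and no evidence of binding.

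The transporters did not move together between the lines. Of the 45 members, 10 passed the test, or 22.2%, against 16.8% of all genes. SLC6A15, SLC36A1 and SLC2A5 were higher in the YAP(5SA) line (3 members, against 7.90% of all genes), and SLC7A7, SLC2A6, SLC1A1, SLC2A3, SLC36A4, SLC6A10P and SLC2A12 were lower (7 members, against 8.91% of all genes). At an unadjusted p under 0.05 there were 16 members, where 26.5% of all genes had one. The median line difference was 0.00 over the 45 members and -0.01 over all genes. The change was both past the test and at least 2-fold for 5 members, or 11.1%, against 7.34% of all genes. The arrays of the 2 lines did not overlap for 13 members, or 28.9%, against 28.2% of all genes. Each array centred on its median gave 12 members past the test (26.7%, against 18.4% of all genes), 5 higher and 7 lower.

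**Figure D1:**
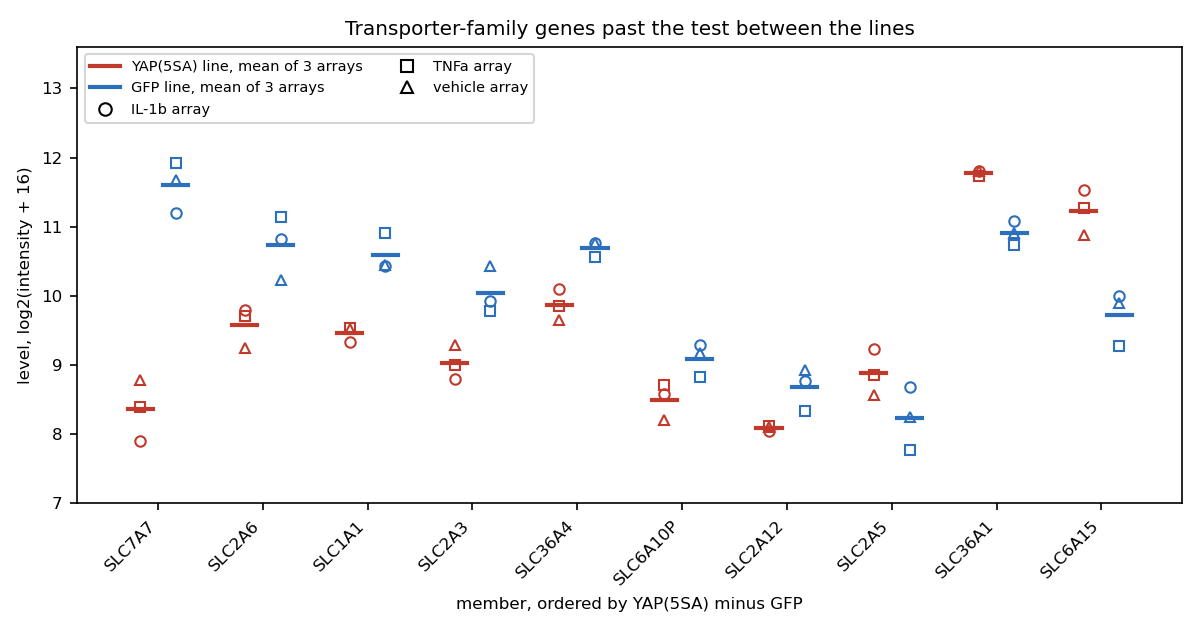
Level of the 10 members past the test between the lines, in log2(intensity + 16), one symbol per array (circle IL-1b, square TNFa, triangle vehicle) with a bar at the mean of 3 arrays, YAP(5SA) in red to the left of GFP in blue. SLC7A7 lies at 7.90 to 8.78 in the YAP(5SA) line and 11.19 to 11.92 in the GFP line; for SLC2A5 the lines overlap.

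SLC7A7, the light chain of the exchanger y+LAT1 that releases cationic amino acids in exchange for neutral ones and is mutated in lysinuric protein intolerance, had the largest difference of all members. Its level was 7.90 with IL-1b, 8.39 with TNFa and 8.78 with vehicle in the YAP(5SA) line, against 11.19, 11.92 and 11.68 in the GFP line. Each YAP(5SA) array thus lay more than 2 units below each GFP array. In deposited intensity these were 222.5, 320.5 and 424.0 against 2327, 3871 and 3267. The difference was -3.24 ± 0.21 (limma SE, 3 pairs), a 9.46-fold lower level, with an adjusted p of 2.1e-15. It was -3.30 in the IL-1b pair, -3.53 in the TNFa pair and -2.90 in the vehicle pair.

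The other 5 members of the SLC7A family all had positive differences, and none of them passed the test. SLC7A5, the LAT1 light chain that imports large neutral amino acids, read 15.23, 15.37 and 15.71 in the YAP(5SA) line under IL-1b, TNFa and vehicle, against 14.97, 15.04 and 15.38 in the GFP line. The lines overlapped, and the difference was 0.31 ± 0.20, with a 95% interval of -0.10 to 0.72 and an adjusted p of 0.357. Its heavy chain SLC3A2 (CD98), which SLC7A7 shares, read 14.27, 14.46 and 14.37 in the YAP(5SA) line against 14.14, 14.53 and 14.20 in the GFP line. That difference was 0.08 ± 0.20, with an interval of -0.34 to 0.49. SLC7A1, the arginine and lysine importer CAT1, had a difference of 0.53 (adjusted p = 0.0769), and SLC7A6, the y+LAT2 light chain, one of 0.52 (adjusted p = 0.0865). These 2 are singled out because their arrays did not overlap between the lines. Both passed the test with each array centred on its median, at 0.57 (adjusted p = 0.0415) for SLC7A1 and 0.56 (adjusted p = 0.0499) for SLC7A6. After quantile normalization SLC7A1 passed (0.62, adjusted p = 0.0335) and SLC7A6 did not. A dimmer probe of SLC7A6 gave 0.27, with -0.21 in its IL-1b pair, and did not pass the test among probes. The family median was 0.37.

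SLC6A15, a sodium-coupled transporter of branched-chain amino acids and proline, rose the most. It read 11.53 with IL-1b, 11.28 with TNFa and 10.88 with vehicle in the YAP(5SA) line, against 9.99, 9.27 and 9.89 in the GFP line. The lowest YAP(5SA) array stood above the highest GFP array. The difference was 1.51 ± 0.21 (2.85-fold, adjusted p = 7.7e-07), and the pairs gave 1.53 with IL-1b, 2.01 with TNFa and 0.99 with vehicle. SLC6A15 had 4 probes above the dimness limit. Their differences ran between 0.44 and 1.51, all positive, and 3 of them passed the test among probes.

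The pseudogene SLC6A10P read 8.58, 8.72 and 8.20 in the YAP(5SA) line against 9.29, 8.83 and 9.17 in the GFP line. Its difference was -0.59 ± 0.21 (adjusted p = 0.0483), and its near identity to the creatine transporter gene means that the probe may read both. That call was lost in 6 of 10 alternative settings, and without the IL-1b or the vehicle pair. SLC6A6, the taurine transporter, read 13.54, 13.82 and 13.76 in the YAP(5SA) line and 13.81, 13.36 and 13.89 in the GFP line. The lines overlapped, and its difference was 0.02 ± 0.21. The median over the 10 SLC6A members was 0.03.

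Of the 9 measured SLC2A members, 1 rose and 3 fell, and 7 had a negative difference. SLC2A6 (GLUT6), a sugar transporter found on lysosomes, read 9.79, 9.71 and 9.25 in the YAP(5SA) line against 10.83, 11.14 and 10.23 in the GFP line under IL-1b, TNFa and vehicle. It fell by 1.15 on the log2 scale (-1.15 ± 0.21, 2.22-fold, adjusted p = 4.3e-05). SLC2A3 (GLUT3), a glucose transporter of high affinity, read 8.79, 8.997 and 9.28 in the YAP(5SA) line against 9.92, 9.78 and 10.43 in the GFP line. Its difference was -1.02 ± 0.21 (2.03-fold, adjusted p = 2.3e-04), and a second probe gave -0.81, also past the test among probes. The lines did not overlap for either gene. SLC2A14 is a close copy of SLC2A3, so probes of the pair may share signal; its own difference was -0.16 ± 0.22.

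SLC2A5 (GLUT5), the fructose transporter, went the other way. Its level was 9.23, 8.85 and 8.57 in the YAP(5SA) line against 8.69, 7.78 and 8.24 in the GFP line. The GFP array with IL-1b lay above the YAP(5SA) array with vehicle, so the lines overlapped. The difference was 0.65 ± 0.21 (adjusted p = 0.0272). That call was lost when dim probes were kept (adjusted p = 0.0917) and when treatment was left out of the fit (adjusted p = 0.167). It was also lost without the IL-1b or the TNFa pair. SLC2A12 (GLUT12) read 8.04, 8.12 and 8.11 in the YAP(5SA) line against 8.77, 8.33 and 8.93 in the GFP line. Its difference of -0.59 ± 0.21 (adjusted p = 0.0477) was lost in 7 of 10 alternative settings, and without the IL-1b or the vehicle pair. SLC2A4RG, which shares only the name of the family, had a difference of 0.40 (adjusted p = 0.236). The family median was -0.32, with 0.11 in the TNFa pair, -0.62 in the IL-1b pair and -0.43 in the vehicle pair.

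SLC2A1, the main glucose transporter of most cells, and SLC7A11, the cystine importer, are outside the choice of members. SLC2A1 had a line difference of 0.34 (adjusted p = 0.307) and SLC7A11 one of -0.29 (adjusted p = 0.405).

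SLC1A1 (EAAT3), which takes up glutamate, aspartate and cysteine, was the SLC1A member that passed the test. It read 9.33, 9.54 and 9.52 in the YAP(5SA) line against 10.43, 10.90 and 10.45 in the GFP line, with no overlap. The difference was -1.13 ± 0.21 (2.19-fold, adjusted p = 5.4e-05). SLC1A5 (ASCT2), the glutamine exchanger, read 13.96, 13.67 and 13.35 in the YAP(5SA) line against 13.52, 13.14 and 13.75 in the GFP line. It was higher in the YAP(5SA) line with either cytokine and lower with vehicle, and its difference was 0.19 ± 0.21 (95% interval -0.25 to 0.62).

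The 2 measured SLC36A members moved in opposite directions. SLC36A1 (PAT1), a proton-coupled carrier of small amino acids on lysosomes and at the cell surface, read 11.81, 11.73 and 11.80 in the YAP(5SA) line against 11.09, 10.74 and 10.91 in the GFP line. Its difference was 0.87 ± 0.20 (1.82-fold, adjusted p = 0.0016). The probes of SLC36A1 disagreed, however. The dimmer one gave -0.25 and did not pass, and the mean of both probes gave 0.31 (adjusted p = 0.323). SLC36A4 (PAT4), which carries proline and tryptophan with high affinity, read 10.10, 9.86 and 9.66 in the YAP(5SA) line against 10.77, 10.56 and 10.77 in the GFP line. It fell by 0.83 on the log2 scale (-0.83 ± 0.21, 1.78-fold, adjusted p = 0.0029), and its dimmer probe gave -1.10, also past the test. Without the IL-1b pair the difference was -0.91 with an adjusted p of 0.0575.

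None of the 8 SLC38A, 3 SLC5A and 2 SLC16A members passed the test, with medians of -0.15, -0.37 and -0.05. SLC38A2 (SNAT2), a neutral amino acid importer induced by amino acid starvation, read 15.91, 15.94 and 15.77 in the YAP(5SA) line against 16.50, 16.10 and 16.49 in the GFP line. The lines did not overlap, and the difference was -0.49 ± 0.21 (adjusted p = 0.111), which passed after quantile normalization (-0.59, adjusted p = 0.0295). SLC38A1 (SNAT1) did not overlap either and had 0.29 ± 0.20. SLC38A9, the lysosomal arginine sensor of mTORC1, had 0.02 ± 0.21 (95% interval -0.40 to 0.43). For SLC38A10, singled out because its probes differ, 1 of 3 probes passed the test at -1.05, while the one that stands for the gene gave -0.22.

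SLC5A3, the myo-inositol transporter, read 9.85, 10.85 and 9.88 in the YAP(5SA) line against 10.75, 10.49 and 10.61 in the GFP line. The TNFa pair ran against the other 2, and the difference was -0.42 ± 0.22 (adjusted p = 0.229). SLC5A6, the biotin and pantothenate transporter, had 0.05 ± 0.21, and SLC16A5 (MCT6) had 0.01 ± 0.21. SLC16A1, SLC16A3 and SLC6A14 are no part of these counts: the first 2 were not analysed here, since no probe used here carried their symbols, and SLC6A14 lay under the dimness limit. The members just above that limit of 7.79 were SLC2A14 (mean level 8.02) and SLC6A17 (7.99), and those just under it were SLC6A12 (7.72) and SLC16A13 (7.57).

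**Figure D2:**
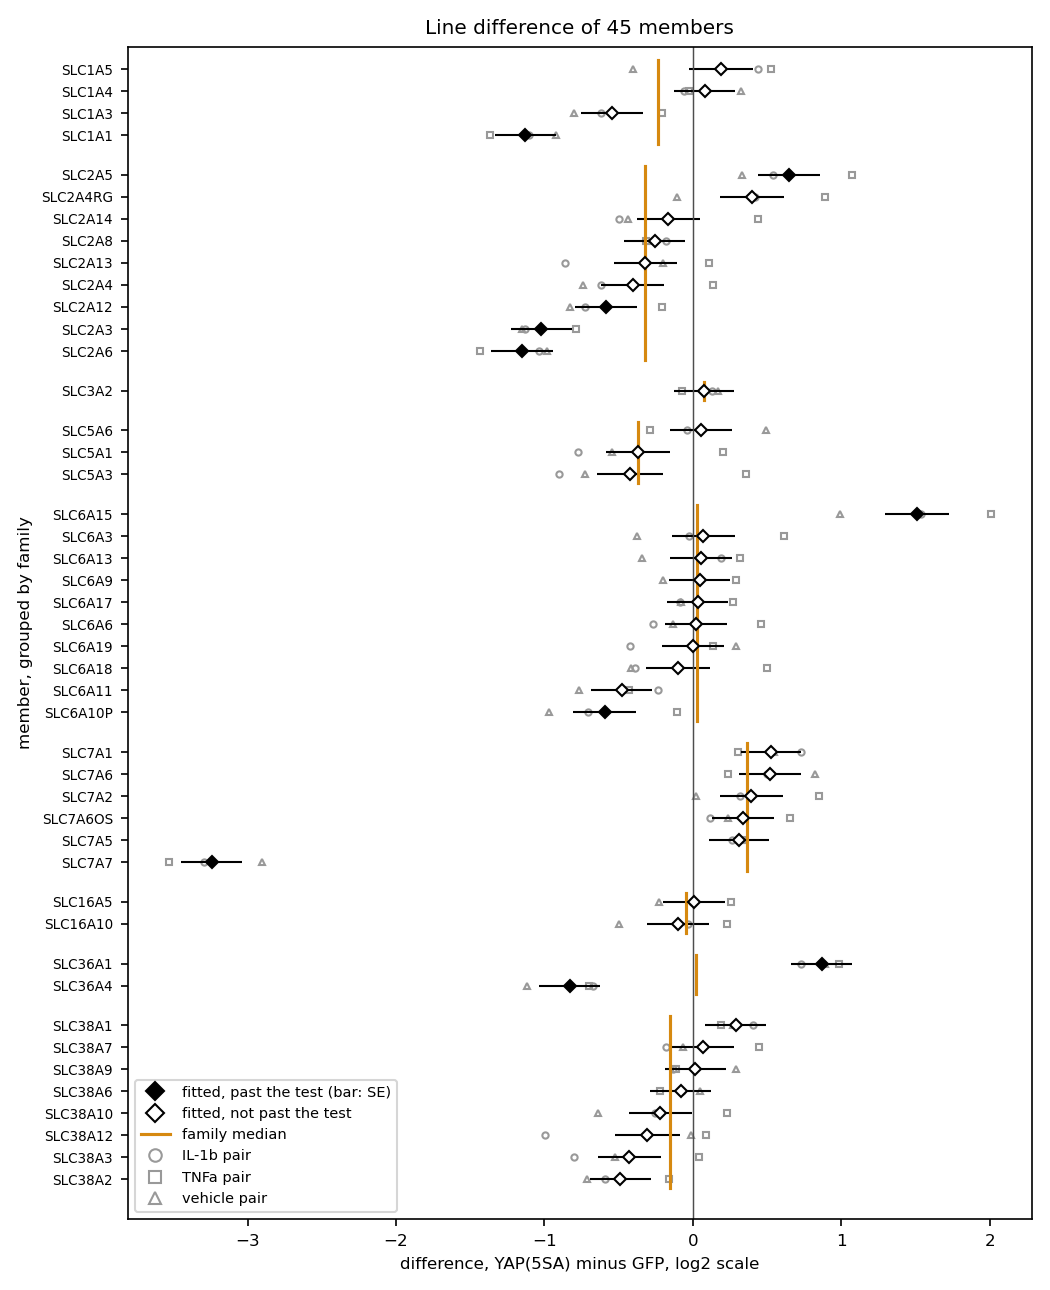
YAP(5SA) minus GFP for the 45 members, on the log2 scale, by family. Diamonds are fitted differences with limma SE, filled where past the test; grey circles, squares and triangles are the IL-1b, TNFa and vehicle pairs; the orange line is the family median. SLC7A7 at -3.24 and SLC6A15 at 1.51 lie farthest from 0.

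The TNFa pair of arrays lay apart from the other pairs. The median pair difference over the 45 members was -0.18 with IL-1b, 0.21 with TNFa and -0.23 with vehicle, and over all genes it was -0.07, 0.17 and -0.10. The part of this shift in the results was not tested. Without the TNFa pair 17 members passed the test, of which SLC1A3, SLC2A4, SLC38A2, SLC38A3, SLC5A1 and SLC5A3 were lower and SLC7A1 and SLC7A6 higher beyond those named above, and SLC2A5 no longer passed. Without the IL-1b pair 6 members passed. The share of all genes past the test in these fits is not given here. The counts therefore cannot be read as particular to the transporters. The 10 calls of the full set had the same sign in all 3 pairs.

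Probes of 1 gene mostly agreed in direction. Of 10 members with several probes above the limit, 9 had the same sign on all of them, SLC36A1 being the exception. Of the 58 member probes, 15 passed the test among probes, where 16.6% of all probes did. For 6 of the 10 members past the test only 1 probe was above the limit.

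**Figure D3:**
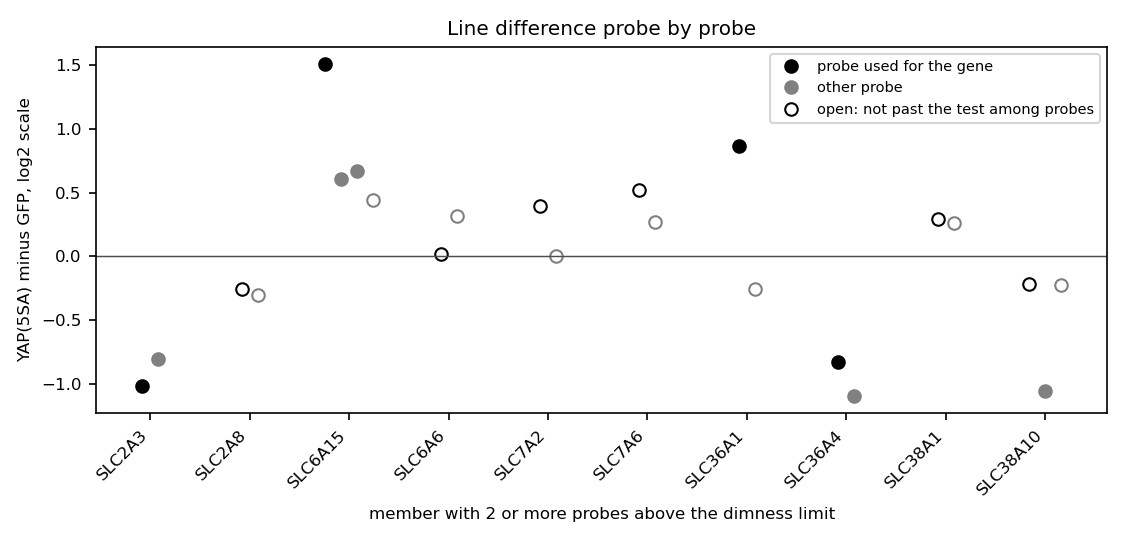
Line difference of each probe above the dimness limit (log2 scale, YAP(5SA) minus GFP) for the 10 members with several such probes, black for the probe that stands for the gene, grey for others, open where not past the test among probes. Probes of SLC36A1 lie at 0.87 and -0.25, and those of SLC6A15 between 0.44 and 1.51.

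Genes that act with these transporters were counted from lists of partners, enzymes and sensors, to be read against the 7.90% of all genes that rose and the 8.91% that fell. Of 7 measured chaperones and adaptors, 2 rose and 2 fell, with a list median of 0.33. NEDD4L, a ubiquitin ligase that removes transporters from the surface, rose (2.01 ± 0.21), as did EMB, a partner of monocarboxylate transporters (1.29). BSG, the partner of other monocarboxylate transporters, fell (-0.67), and so did CLTRN, a partner of SLC6A19 in kidney (-0.96). Of 9 other amino acid, peptide and sugar transporters, the peptide carrier SLC15A2 rose (1.27), and SLC45A4 (-0.80) and SLC45A2 (-0.68) fell; the list median was -0.18.

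Of 15 measured genes of amino acid sensing by mTORC1, 5 rose and none fell, with a list median of 0.21. SESN2, which binds leucine and holds mTORC1 down, read 13.94, 14.01 and 14.06 in the YAP(5SA) line against 12.39, 11.98 and 12.38 in the GFP line (1.75 ± 0.21). RRAGD, a Rag GTPase that recruits mTORC1 to the lysosome, rose by 1.58, SESN1 by 0.71 and DDIT4, an inhibitor upstream of mTORC1, by 0.58. The members that rose thus include inhibitors as well as an activator of the complex. SESN2 passed under each of 11 alternatives and RRAGD under each of the 10 that tested it, and both passed without any single array. SESN1 did not pass without the IL-1b pair or without the treatment term. FNIP1 was lost without the IL-1b or the TNFa pair and in 4 of 11 alternative settings, and DDIT4 was lost without any one of the 3 pairs.

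Of 20 genes of amino acid metabolism, 4 rose and 2 fell, with a list median of 0.22. BCAT1, which starts the breakdown of branched-chain amino acids, read 13.55, 13.40 and 13.50 in the YAP(5SA) line against 11.22, 10.96 and 11.15 in the GFP line (2.37 ± 0.20). GLUL, glutamine synthetase, fell (-1.79 ± 0.20), while ASS1, of arginine synthesis, rose by 0.89 and ODC1, of polyamine synthesis, by 0.74. The mean of GLUL in the YAP(5SA) line (7.63) lay under the dimness limit, so GLUL passed that limit only through the GFP line. Of 19 genes of glucose and lactate metabolism, 3 rose and 3 fell, with a list median of 0.10. HK2, a hexokinase, rose by 1.07, and PFKFB4 (-0.99) and PFKFB3 (-0.82), which set the level of an activator of glycolysis, fell. HK2 had a mean of 7.45 in the GFP line, under the dimness limit, and passed it only through the YAP(5SA) line. PFKP gave 2.45 ± 0.35, with 16.20, 16.48 and 16.44 in the YAP(5SA) line against 11.61, 14.10 and 16.06 in the GFP line; its vehicle arrays differed little and the fitted value rests on the 2 cytokine arrays of the GFP line. Of 11 transcription factors with known transporter targets, ATF5 (0.83) and DDIT3 (0.69), both of the stress response, rose, and NFE2L2, of the oxidative stress response, fell (-0.59), as did YAP1 above; the list median was 0.07. Of the partner, enzyme, sensor and factor genes named with a value, NEDD4L, EMB, CLTRN, SLC15A2, SESN2, RRAGD, BCAT1, GLUL, ASS1, HK2 and PFKFB4 passed under each alternative that tested them and without any single array. SLC15A2, RRAGD, GLUL and HK2 were tested in 10 alternatives and the others in 11. PFKP passed without any single array but not with robust estimation or without the treatment term. The calls of BSG, SLC45A2, SLC45A4, ODC1, PFKFB3, ATF5, DDIT3, NFE2L2 and YAP1 were lost without the IL-1b pair. Those of SLC45A2, ODC1, DDIT3, NFE2L2 and YAP1 were also lost without the vehicle pair, and that of BSG without the TNFa pair. SLC45A2 was lost in 7 of 10 alternative settings, with differences between -1.24 and -0.36 over all fits and 0.43 in the TNFa pair alone. NFE2L2 was lost in 4 of 11 settings, BSG, DDIT3 and YAP1 in 2 of 11 each, and ATF5 in 1.

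Neither cytokine changed a member past the test after 60 min. With IL-1b 0 of 45 members passed in limma, where 2.36% of all genes did, and with TNFa 0 passed, where 0.769% of all genes did. At an unadjusted p under 0.05 there were 11 members with IL-1b (24.4%, against 15.1% of all genes) and 1 with TNFa (2.22%, against 4.46% of all genes). Each response was read in 2 pairs of arrays, and both responses share the vehicle arrays.

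The IL-1b response was at least 0.5 in size for 12 members, none past the test. The share of all genes with a response of that size was not counted. SLC6A19, an intestinal and renal importer of neutral amino acids, read 11.54 with IL-1b and 11.14 with vehicle in the YAP(5SA) line, and 11.96 with IL-1b and 10.85 with vehicle in the GFP line. Its response was 0.75 ± 0.26 (adjusted p = 0.121), and it passed in a fit on the IL-1b and vehicle arrays alone (adjusted p = 0.0394). SLC7A7 had -0.88 in the YAP(5SA) line and -0.49 in the GFP line, a response of -0.68 (adjusted p = 0.165). SLC2A6 had 0.55 in the YAP(5SA) line and 0.60 in the GFP line with IL-1b, and 0.46 and 0.92 with TNFa. Its TNFa response of 0.69 (adjusted p = 0.512) was the only one of at least 0.5 among the members.

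**Figure D4:**
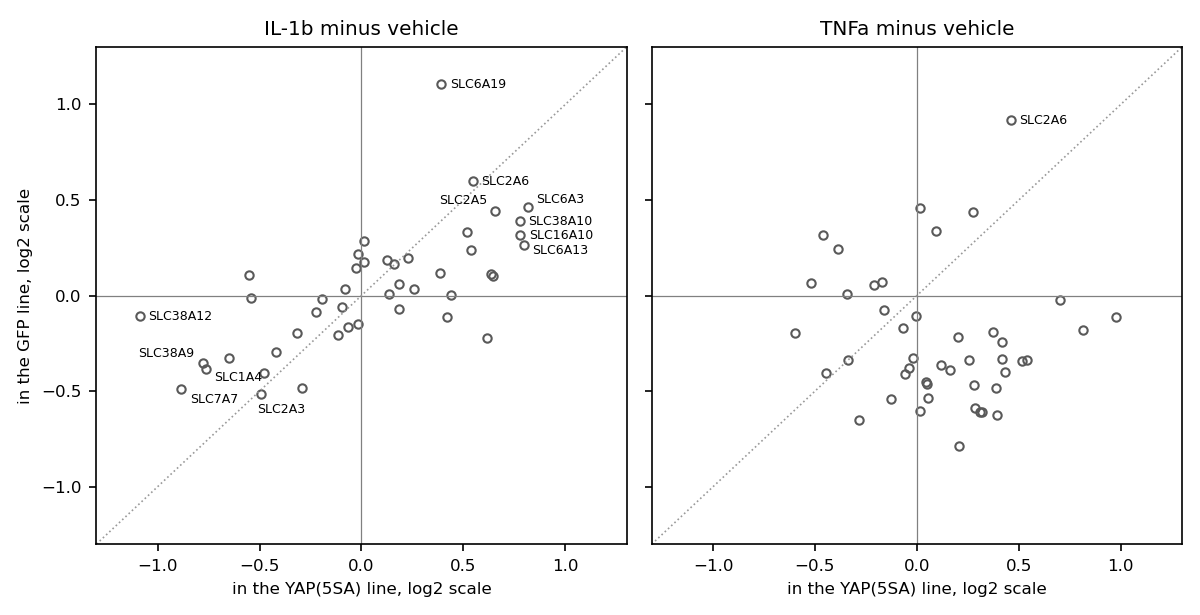
Response of the 45 members to IL-1b (left) and TNFa (right), cytokine minus vehicle on the log2 scale, in the YAP(5SA) line (horizontal) and the GFP line (vertical), one point per gene; the dotted line marks equal responses and members with a fitted response of at least 0.5 are named. SLC6A19 lies at 0.39 and 1.11 with IL-1b, and SLC2A6 at 0.46 and 0.92 with TNFa.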

How the data were processed

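The authors deposited linear probe intensities of 6 one-colour Cy5 arrays; from the values, with 10 to 1146 probes per array below 0, a background had been subtracted. How the scanner signals were corrected and whether they were scaled is not given in the sources used here. Detection flags were not part of the table. Per the labels' protocols, Trizol RNA was amplified by an Eberwine method and labelled with Cy5. Of 28264 probes, 25893 carried 1 gene, 0 carried several and 2371 were unnamed; all 25893 identifiers matched the RefSeq gene table, used for symbols. Values below 0 were set to 0, 16 was added and log2 was taken, so that changes of dim genes come out too small. The dimmest 40% of named probes by mean log2 level were not tested, and a gene with several probes was read from the one with the highest mean. limma 3.58.1 (lmFit, eBayes, in R 4.3.3) fitted treatment and line on all 6 arrays, with Benjamini-Hochberg adjustment at 0.05. The fit has 2 residual degrees of freedom plus 34.3 from the prior and assumes an equal line difference under the 3 treatments. Nothing states that arrays came from separate cultures, and their number limits the precision. The members and the gene lists were chosen with earlier results of these data known. Genes named are the members past the test, the brightest of each family, 11 fixed by name (those above the limit), the 2 on either side of the dimness limit, and up to 4 of each partner list past the test by size; others are said to be singled out. Families and lists are described by counts and medians, with no test. Alternatives were other scalings, filters, pseudocounts and probe rules, trended robust eBayes, fits on fewer arrays or with no covariate, and leaving out each array. Ranking probes by mean linear intensity and leaving out the 3 symbols that name no transporter protein were chosen after seeing the data.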

Additional observations from a re-analysis of the deposited data

Results flagged for a closer look

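For 7 members the 2 lines went opposite ways with TNFa, by at least 0.5 in one line and 0.2 in the other, sizes set with the data in view. Each response is cytokine minus vehicle from 1 pair of arrays, on the log2 scale, and no difference was tested because no condition was repeated. The TNFa response was 0.32 in the YAP(5SA) line and -0.61 in the GFP line for SLC1A5, the glutamine exchanger, and 0.39 and -0.62 for SLC6A15, the carrier of branched-chain amino acids and proline. It was 0.54 in the YAP(5SA) line and -0.34 in the GFP line for SLC2A4, the insulin-regulated glucose transporter, and 0.21 and -0.79 for SLC2A4RG. For SLC38A10 it was 0.29 in the YAP(5SA) line and -0.59 in the GFP line, for SLC6A10P 0.52 and -0.34, and for SLC6A18 0.31 and -0.61. All of these were positive in the YAP(5SA) line and negative in the GFP line. Over all genes the median difference between the lines was 0.17 in the TNFa pair and -0.10 in the vehicle pair. The responses of the whole array thus also differed in this direction. The share of all genes that went opposite ways by these sizes was not counted, so the 7 cannot be read as particular to the transporters. With IL-1b, SLC1A5 also went opposite ways, with 0.62 in the YAP(5SA) line and -0.22 in the GFP line.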

How the results depend on the processing

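SLC7A7, SLC6A15, SLC2A6, SLC1A1 and SLC2A3 kept their direction and stayed past the test under each alternative that tested them and without any single array. SLC2A3 was tested in 10 alternatives and the others in 11, since it was too dim once the dimmest 60% of probes were left out. Leaving out the dimmest 60% of probes gave 6 members past the test, 4 of them lower, among fewer genes tested (1383 called, against 2077). After median centring of the arrays, 5 members were higher, with SLC7A1 and SLC7A6 gained. When every probe was a row, the 5 higher rows were probes and not genes. They belonged to SLC6A15, SLC36A1 and SLC2A5, so no further member was higher there. Leaving out 1 array gave 6 to 17 members past the test, 2 to 4 higher and 4 to 13 lower. Either array of a pair gives the same fit, and the ends are the IL-1b and TNFa pairs. The share of all genes in these fits is not given here. With IL-1b, 1 member passed with every probe as a row, lower (SLC7A6, -1.01), and 1 with only the IL-1b and vehicle arrays, higher (SLC6A19, 0.75); leaving out 1 array gave 0 to 1, and 0 to 1 higher. The SLC7A6 value came from its dimmer probe, while the probe that stands for the gene gave -0.49 with IL-1b in the main fit (adjusted p = 0.358). With TNFa none passed in any alternative. Quantile normalization turned SLC16A5 to -0.040 and SLC6A6 to -0.034, neither past the test. Leaving out 1 array gave -0.12 to 0.12 for SLC16A5, -0.20 to 0.16 for SLC6A6, -0.46 to 0.0013 for SLC2A14, -0.085 to 0.096 for SLC6A17, -0.12 to 0.090 for SLC38A9 and -0.16 to 0.22 for SLC5A6. The cause was not tested. The line difference is paired by treatment in the fit itself, and dropping the treatment term gave 7 members past the test, with the share of all genes not given here. No paired analysis by replicate number was possible because each condition has 1 array. The 6 arrays give no spread between replicates and the table no detection flags, so how far dim levels, such as that of SLC7A7 in the YAP(5SA) line, stand above background is unknown.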
